A study of Danio rerio with 6 samples.

Results

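The 10 genes described here encode the core cardiac transcription factors of the GATA, NKX2, HAND and MEF2 families: gata4, gata5, gata6, nkx2.5, nkx2.7, hand2, mef2aa, mef2ca, mef2cb and mef2d. They were taken as the rows whose gene name was exactly one of these symbols, and all 10 were found among the 25281 genes counted in each library. GATA factors are zinc finger proteins, NKX2 factors homeodomain proteins, HAND factors basic helix-loop-helix proteins and MEF2 factors MADS-box proteins. They bind enhancers of contractile and secreted-peptide genes, often together, and much of heart muscle formation in vertebrates depends on them. In zebrafish embryos, loss of gata5 or hand2 leaves little ventricular myocardium, nkx2.5 and nkx2.7 together keep ventricular cells from taking atrial character, and mef2ca and mef2cb act together in cardiomyocyte differentiation. GATA factors and hand2 are also known from endocardium and epicardium.

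RNA-seq was done on cells sorted from the atrioventricular canal, the ring between atrium and ventricle, of adult zebrafish of 4 to 8 months. All fish carried the same 3 transgenes. Tg(myl7:GAL4db-TCFΔC-2A-mCherry) makes a fusion of the GAL4 DNA-binding domain with a TCF, Tg(UAS:EGFP) reports its activity, and Tg(myl7:NLS-mCherry) labels nuclei. The myl7 promoter limits the fusion and the red label to cardiomyocytes, and EGFP appears where β-catenin acts on the fusion. There were 3 GFP-positive (GFP+) libraries, named β-cat ON CMs and sorted as mCherry+ EGFP+, and 3 GFP-negative (GFP-) libraries, named β-cat OFF CMs. The sorted-fraction label of the GFP- libraries reads mCherry- EGFP+, which conflicts with their titles, so the gate of that group is not settled. No label ties a replicate to separate fish, so p-values measure only how far these samples spread, which may be technical.

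Total counts ran from 14783352 to 19750914 per library. The mitochondrially encoded share of counts was 11.9% to 15.7% in GFP- and 35.6% to 44.9% in GFP+ libraries. Among 13490 genes tested, 4 to 66 had no count in a GFP- library and 725 to 1270 in a GFP+ one, most in GFP+ replicate 3. Cardiomyocyte markers were abundant in every library, at a summed level of 62855 to 80899 CPM (TMM-scaled counts per 1e6 counts) in GFP- and 27003 to 35131 CPM in GFP+ libraries. None of the 7 matched cardiomyocyte markers was at 0, and 4 fell and 1 rose. Calls in each marker list are at an edgeR adjusted p under 0.05, where 2.13% of all tested genes fell and 2.08% rose. Endocardial and endothelial markers summed to 69.4 to 121.0 CPM in GFP- and 280 to 329 CPM in GFP+ libraries, with 2 of 9 past the threshold and none at 0. Epicardial markers summed to 123 to 185 and 301 to 638 CPM, mostly from krt4, podxl and aldh1a2, with 3 of 6 tested members higher. All 6 tested had log2 fold changes above 0. The defining factor gene wt1a, which was not tested, was near the floor in both groups, with 7, 12 and 10 counts in the GFP- and 0, 0 and 3 in the GFP+ libraries, as was tcf15 with 5, 0 and 8 and then 0, 0 and 0. Fibroblast and cushion mesenchyme markers summed to 125 to 297 and 652 to 907 CPM, with 3 of 8 higher. Smooth muscle and pericyte markers ran from 164 to 278 and from 548 to 955 CPM, with 2 of 4 higher. Most of these counts were of acta2, with 4117, 3114 and 4837 in the GFP- and 11876, 8222 and 9912 in the GFP+ libraries. The 1 with a log2 fold change below 0 was the pericyte marker pdgfrb. It had 23, 27 and 22 counts in the GFP- and 10, 13 and 4 in the GFP+ libraries, without overlap in CPM. Erythrocyte markers ran from 509.9 to 613.4 and from 1592 to 2447 CPM, with 3 of 5 higher. Macrophage and leukocyte markers overlapped between groups, at 97.0 to 277 and 66.0 to 320 CPM, with 0 of 5 past the threshold.

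The comparison of GFP+ with GFP- libraries asks whether canal cardiomyocytes with active β-catenin carry different levels of these factors. No factor passed the test. Of the 10 genes, 9 had enough counts to be tested, and 0 of the 9 had an edgeR adjusted p under 0.05, where 4.21% of all 13490 tested genes did. At an unadjusted p under 0.05 there was 1 of 9, nkx2.5, where 18.9% of all tested genes passed. DESeq2 and limma-voom with a variance for each group also called 0 of 9. Over all tested genes DESeq2 called 938 higher and 729 lower, and limma-voom 335 and 197. The log2 fold changes, GFP+ over GFP-, ran from -0.75 for mef2ca to 0.48 for gata5, with 4 above and 5 below 0. Their median was -0.15, beside 0.01 for all tested genes. In 2 of the 9 the groups did not overlap, gata5 higher and nkx2.5 lower in GFP+ libraries. Groups did not overlap for 29.6% of all tested genes, 12.1% higher and 17.6% lower. In bulk samples, fewer cells of a type and less RNA per cell cannot be told apart. Each of the values below was measured in libraries that also differed in the marker lists and the mitochondrial share above, and the part of these in the results was not tested.

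**Figure D1:**
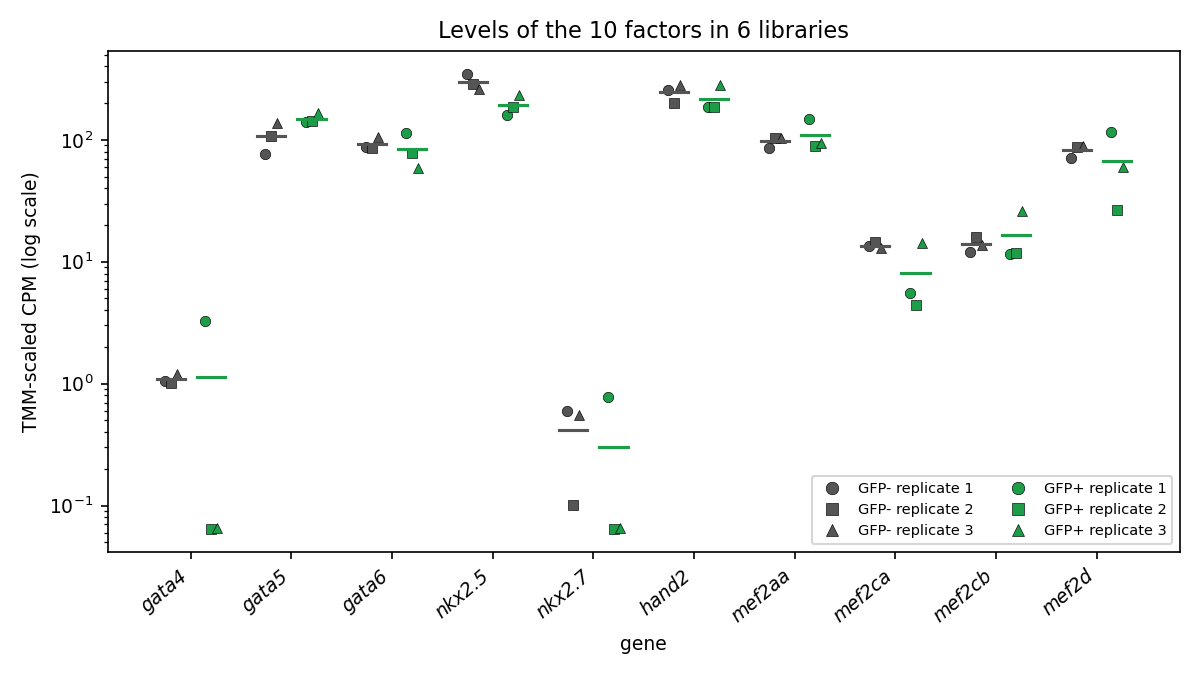
TMM-scaled CPM (log scale) of each factor in the 6 libraries, grey for GFP- and green for GFP+, with symbols for replicate numbers and bars for group means (n = 3). Heights of different genes are not corrected for transcript length. The points of gata5 and nkx2.5 do not overlap between groups, and gata4 and nkx2.7 had 1 count each in GFP+ replicates 2 and 3.

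Among the GATA genes, gata5 and gata6 carried nearly all counts and gata4 almost none. gata5 (ENSDARG00000017821), whose product acts early in endoderm and heart formation, stood at 76.8, 108 and 137 CPM in GFP- replicates 1, 2 and 3 and at 141, 143 and 165 CPM in GFP+ replicates 1, 2 and 3. All GFP+ values lay above all GFP- values, by a narrow margin, and the lowest library was GFP- replicate 1. The group means were 107 ± 30.0 and 149 ± 13.1 CPM (SD, n = 3 each), a log2 fold change of 0.48 ± 0.23 SE that did not pass the test (edgeR adjusted p = 0.343, 0.190 to 0.741 over 15 alternatives). The 95% interval of the fold, not adjusted for the number of genes, ran from 0.953 to 2.04. Scaled by library size alone, the gata5 groups overlapped, with 150.4 CPM in GFP- replicate 3 and 123 CPM in GFP+ replicate 1.

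gata6 (ENSDARG00000103589), a partner of gata5 in early heart formation, stood at 87.5, 86.1 and 105 CPM in the GFP- and at 114, 78.1 and 58.2 CPM in the GFP+ replicates. The GFP+ values lay on both sides of the GFP- ones, with replicate 1 the highest and replicate 3 the lowest of all 6 libraries. The log2 fold change was -0.15 ± 0.27 (adjusted p = 0.879), with a fold interval of 0.584 to 1.38. Without GFP+ replicate 3 it was 0.04.

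gata4 (ENSDARG00000098952), the family member best known from mammalian hearts, had 16, 20 and 26 counts in the GFP- libraries and 42, 1 and 1 in the GFP+ ones. A single GFP+ library thus held 42 of that group's 44 counts, while the GFP- libraries were alike at 1.06, 1.00 and 1.20 CPM. The fitted log2 fold change of 0.04 ± 1.49 (adjusted p = 0.996) had an interval from -3.44 to 3.53. Without GFP+ replicate 1 it was -3.88 (adjusted p = 0.0729). A difference in gata4 was neither called nor closely bounded in these libraries, since the GFP+ ones disagreed.

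The split of GATA counts between paralogs was compared within each library, where no scaling factor enters. gata5 took 46.5%, 55.3% and 56.4% of the summed gata4, gata5 and gata6 counts in GFP- replicates 1, 2 and 3 and 54.6%, 64.6% and 73.8% in the GFP+ ones. The groups overlapped, with GFP+ replicate 1 at the level of GFP- replicates 2 and 3. The mean share was 52.7 ± 5.45% and 64.3 ± 9.64% (n = 3 each; two-sided exact permutation p = 0.3, where 0.1 is the smallest that 3 against 3 allows). gata6 took 46.7 ± 5.37% and 35.2 ± 9.02% (exact permutation p = 0.2). The gata5 to gata6 count ratio was 0.878, 1.25 and 1.31 in GFP- and 1.24, 1.83 and 2.83 in GFP+ replicates. It was the largest in GFP+ replicate 3, the library with the most tested genes at 0. gata4 took 0.494% to 0.641% of the counts in GFP- libraries and 1.26%, 0.0291% and 0.0292% in the GFP+ ones.

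**Figure D2:**
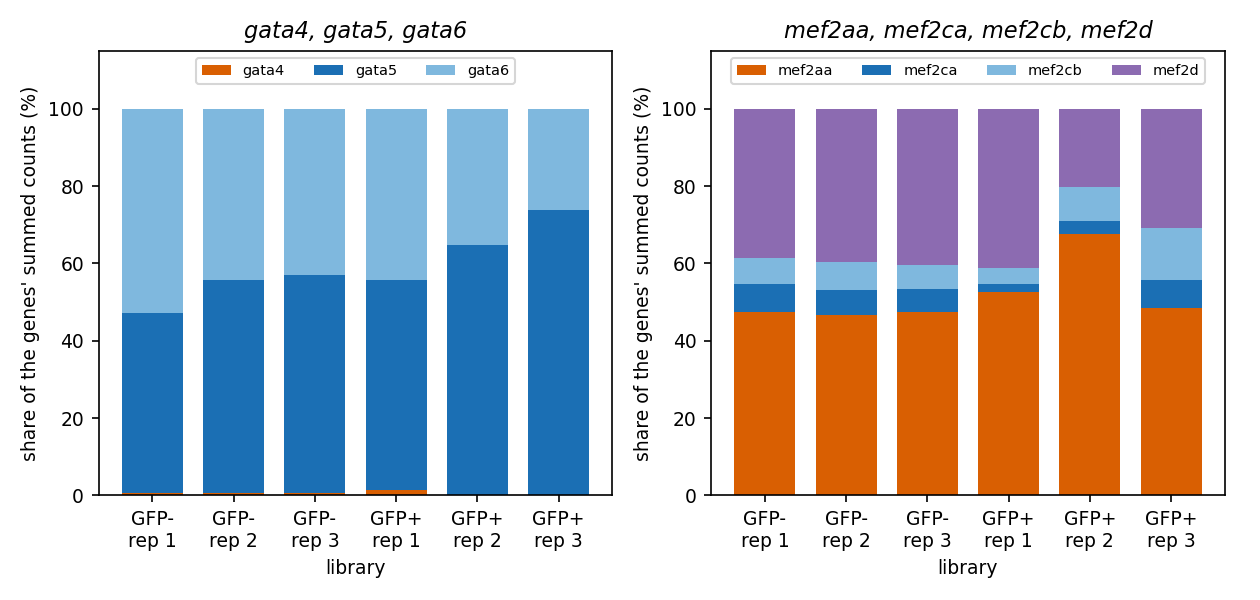
Share of the summed counts (%) of gata4, gata5 and gata6 (left) and of the 4 MEF2 genes (right) in each of the 6 libraries. Bars for the 3 GFP- libraries are alike for the MEF2 genes, with mef2aa at 46.7% to 47.5%, while GFP+ libraries range from 48.3% to 67.5%.

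In the NKX2 family nkx2.5 was the gene with counts and nkx2.7 was near the floor. nkx2.5 (ENSDARG00000018004), the homeodomain factor that keeps ventricular and conduction cells in their state, stood at 350.0, 289 and 262 CPM in GFP- replicates 1, 2 and 3 and at 159, 187 and 232 CPM in GFP+ replicates 1, 2 and 3. Every GFP+ value lay below every GFP- value, also under RLE factors, upper-quartile factors and library size alone. The means were 300.5 ± 45.0 and 192 ± 36.8 CPM (SD, n = 3 each). The log2 fold change of -0.64 ± 0.20 did not pass the test (edgeR adjusted p = 0.130). Its 95% fold interval, not adjusted for the number of genes, was 0.462 to 0.887. In the main fit nkx2.5 was the sole factor whose interval did not hold a fold of 1. Over 15 alternatives its log2 fold change stayed between -0.81 and -0.46, and its adjusted p between 0.0570 and 0.551, so the threshold was not reached in any of them. Its unadjusted p was not under 0.05 with limma-voom, or without GFP- replicate 1, GFP+ replicate 1 or GFP+ replicate 2. Other factors were under it in some fits. These were gata5 with DESeq2, with the replicate block and without GFP- replicate 3, gata4 without GFP+ replicate 1, and mef2ca without GFP+ replicate 3. Cardiomyocyte myl7 stood at 28794 ± 5232 CPM in GFP- and 14594 ± 1704 CPM in GFP+ libraries, a log2 fold change of -0.98 ± 0.18 (edgeR adjusted p = 0.0321). It was 1 of 4 cardiomyocyte markers that fell, while 1 of the 7 matched rose and 2 did not pass. Of all tested genes 2.13% fell and 2.08% rose.

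Ratios of nkx2.5 to the other tested factors within a library were computed after these values had been seen, and are a description with no test. The nkx2.5 to gata5 count ratio was 4.55, 2.69 and 1.91 in GFP- replicates 1, 2 and 3 and 1.13, 1.31 and 1.41 in GFP+ replicates 1, 2 and 3. The nkx2.5 to mef2aa ratio was 4.07, 2.81 and 2.51 and then 1.08, 2.1 and 2.46 in the same order. Both were lower throughout the GFP+ libraries than in any GFP- one, although for mef2aa the nearest values were 2.51 and 2.46. Of the 8 ratios, 3 had groups that did not overlap, all lower in GFP+ libraries, the remaining one being to mef2cb. All 8 share nkx2.5, whose own groups did not overlap, so this count restates its values and adds no separate result. With gata5 higher and nkx2.5 lower in every GFP+ library, the ratio to gata5 had to be lower. The share of such ratios over other gene pairs was not computed. The nkx2.5 to hand2 ratio overlapped, at 1.38, 1.44 and 0.928 against 0.854, 1.01 and 0.815.

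nkx2.7 (ENSDARG00000021232), which shares the early role of nkx2.5 in zebrafish, had 9, 2 and 12 counts in the GFP- and 10, 1 and 1 in the GFP+ libraries, under the expression filter's minimum. Summed over a group, 23 against 12 counts gave a GFP- over GFP+ ratio of 1.48, with an exact 95% counting interval of 0.707 to 3.26 that covers counting error only. In every library nkx2.5 took at least 99.5% of the counts of the pair. At this depth the counts set no close bound on a difference in nkx2.7. In the RefSeq table of the GRCz12tu assembly nkx2.7 overlaps the protein-coding gene rhobtb2a, and the way reads of overlapping genes were counted is not given in the sources used here.

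hand2 (ENSDARG00000008305), the HAND gene of the set, which directs myocardial growth and patterning, had 13974 counts in the GFP- libraries, beside 16737 of nkx2.5, and 9632 in the GFP+ libraries, beside 8510 of nkx2.5. It stood at 254, 201 and 282 CPM in GFP- and at 186, 185 and 284 CPM in GFP+ replicates 1, 2 and 3. GFP+ replicates 1 and 2 lay below all GFP- libraries and GFP+ replicate 3 above them, and replicate 3 was the highest library in both groups. The means were 246 ± 41.4 and 218 ± 57.0 CPM. The log2 fold change of -0.17 ± 0.23 (adjusted p = 0.826) had a fold interval of 0.610 to 1.29. It was -0.42 without GFP+ replicate 3 (adjusted p = 0.251). In the GRCz12tu RefSeq annotation, 4 of the 10 factors overlap another gene, hand2 the protein-coding gene cep44, nkx2.7 rhobtb2a as given above, nkx2.5 a pair of long non-coding RNA genes and mef2aa 1 such gene.

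**Figure D3:**
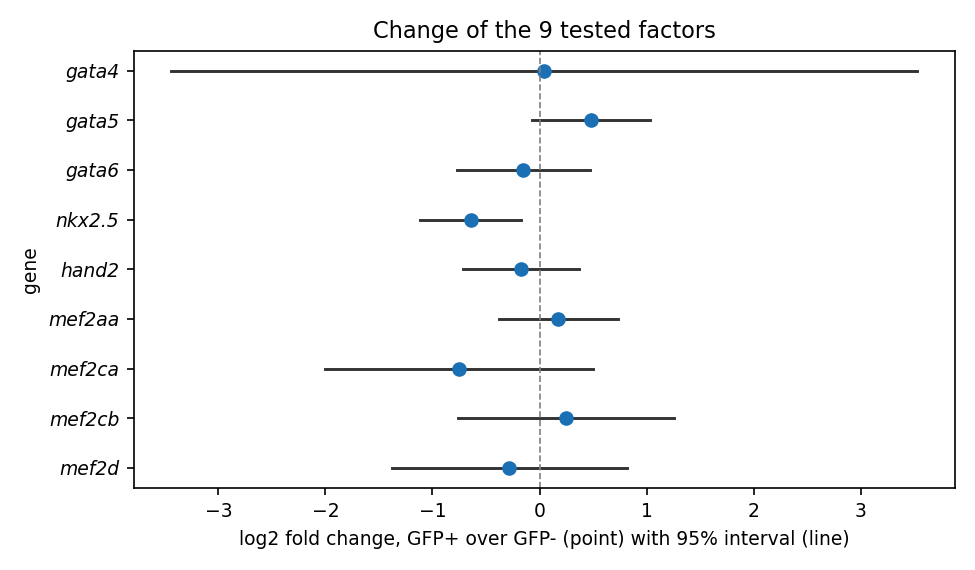
log2 fold change, GFP+ over GFP-, of the 9 tested factors (points) with 95% intervals from the edgeR fit (lines). The interval of nkx2.5 lies below 0, those of gata6, hand2 and mef2aa lie within a 2-fold change in either direction, and that of gata4 runs from -3.44 to 3.53.

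In the MEF2 family mef2aa and mef2d carried most counts. mef2aa (ENSDARG00000031756), a MEF2A-type factor of muscle gene transcription, stood at 86.0, 103 and 104 CPM in GFP- and at 147, 89.3 and 94.3 CPM in GFP+ replicates. GFP+ replicate 1 lay above all other libraries, and the other two lay among the GFP- values. The log2 fold change was 0.18 ± 0.24 (adjusted p = 0.828), with a fold interval of 0.769 to 1.66. It was -0.02 when scaled by library size alone and -0.03 without GFP+ replicate 1.

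mef2d (ENSDARG00000040237), a MEF2 gene of broad expression in vertebrates, stood at 70.4, 87.1 and 88.7 CPM in the GFP- and at 116, 26.8 and 60.4 CPM in the GFP+ replicates. The GFP+ libraries spanned a wider range than the GFP- ones on both sides. The log2 fold change was -0.28 ± 0.47 (adjusted p = 0.871), and 0.14 without GFP+ replicate 2, the lowest library.

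The MEF2C-type pair, required together for cardiomyocyte differentiation in zebrafish embryos, was lower in counts. mef2ca (ENSDARG00000029764) stood at 13.4, 14.5 and 12.9 CPM in GFP- and at 5.58, 4.44 and 14.1 CPM in GFP+ replicates. GFP+ replicates 1 and 2 lay below all GFP- libraries and replicate 3 among them. Under upper-quartile factors replicate 3 lay below them too, at 12.3 against 13.2 CPM in the lowest GFP- library, so the groups did not overlap on that scale. The log2 fold change of -0.75 ± 0.54 did not pass the test (adjusted p = 0.578). Without GFP+ replicate 3, the library that held the most tested genes at 0, it was -1.45 and passed (edgeR adjusted p = 0.0488), the sole call of a factor in 15 alternatives. That fit called 443 higher and 575 lower of 14326 genes, where the main fit called 280 and 288 of 13490. mef2cb (ENSDARG00000009418) stood at 11.9, 15.99 and 13.8 CPM in GFP- and at 11.6, 11.7 and 26.2 CPM in GFP+ replicates. For mef2cb GFP+ replicate 3 lay above all other libraries and the other two just below the GFP- range. Its log2 fold change was 0.25 ± 0.43 (adjusted p = 0.879), and -0.27 without GFP+ replicate 3.

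Counts of mef2ca and mef2cb were nearly equal in these GFP- libraries and unequal in the GFP+ ones. Exact permutation of 3 against 3 libraries allows no p under 0.1, which is above the threshold used here. The test could thus not call any pair, whatever its counts, and it does not decide whether this ratio differed. The mef2ca to mef2cb count ratio was 1.12, 0.906 and 0.933 in GFP- replicates 1, 2 and 3 and 0.483, 0.379 and 0.538 in GFP+ replicates 1, 2 and 3. All 3 GFP+ ratios lay below the GFP- ones. The mean log2 ratio (0.5 added to each count) was -0.03 ± 0.17 and -1.11 ± 0.26 (SD, n = 3 each), a difference of -1.08. Among the 10 paralog pairs compared, this was 1 of 2 whose groups did not overlap (two-sided exact permutation p = 0.1, the smallest possible, and 0.5 adjusted over the 10 pairs by Benjamini-Hochberg). How often ratios of other gene pairs do not overlap was not computed. Among single tested genes, groups did not overlap for 29.6%. The mef2ca to mef2cb difference stayed between -1.19 and -0.94 when each library was left out in turn. The other pair was mef2aa to mef2d, at 1.22, 1.18 and 1.17 against 1.27, 3.33 and 1.56, with the same exact permutation and adjusted p. Its nearest values, 1.22 and 1.27, were close, and without GFP+ replicate 2 the difference in log2 ratio fell from 0.66 to 0.24.

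As shares of the summed MEF2 counts, mef2aa took 47.3%, 46.7% and 47.5% in the GFP- and 52.6%, 67.5% and 48.3% in the GFP+ replicates. The groups did not overlap (47.2 ± 0.432% against 56.2 ± 10.1%, n = 3 each, exact permutation p = 0.1), although GFP+ replicate 3 exceeded the highest GFP- library by little. That p was not adjusted for the number of shares compared. Without GFP+ replicate 2 the difference in the mef2aa share fell from 9.01 to 3.33 percentage points. As mef2aa and mef2d carried most MEF2 counts, this share partly restates their ratio above. mef2d took 39.5 ± 0.835% and 30.8 ± 10.5%, mef2ca 6.60 ± 0.753% and 4.20 ± 2.72%, and mef2cb 6.70 ± 0.500% and 8.81 ± 4.66%. Those 3 overlapped between groups (exact permutation p = 0.4, 0.3 and 0.6). The spread of all 4 shares was larger among GFP+ libraries. The 2 remaining MEF2 genes in the tables, mef2ab and mef2b, had 1 to 8 and 2 to 36 counts per library and were not tested.

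The coefficient of variation (CV, SD over mean of CPM) was larger among GFP+ than among GFP- libraries for 8 of the 9 tested factors, as it was for 86.2% of all tested genes. In GFP- libraries it ran from 6.10% for mef2ca to 28.0% for gata5, beside a median of 15.1% for the 5854 genes whose mean reached 10 CPM. In GFP+ libraries gata4 stood at 163%, and mef2d, mef2ca and mef2cb at 66.3%, 65.7% and 51.0%, and the median of those genes was 32.5%. nkx2.5 and hand2, with the most counts, were at 19.1% and 26.1%. gata5 was the exception, with 28.0% in GFP- and 8.79% in GFP+ libraries. For 3 factors, gata6, hand2 and mef2aa, the 95% interval of the main fit, not adjusted for the number of genes, lay within a 2-fold change in either direction. For gata4, gata5, nkx2.5, mef2ca, mef2cb and mef2d it did not. That fit gave both groups the same dispersion for a gene, although their spread differed, so a 2-fold change is not excluded by these intervals.

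**Figure D4:**
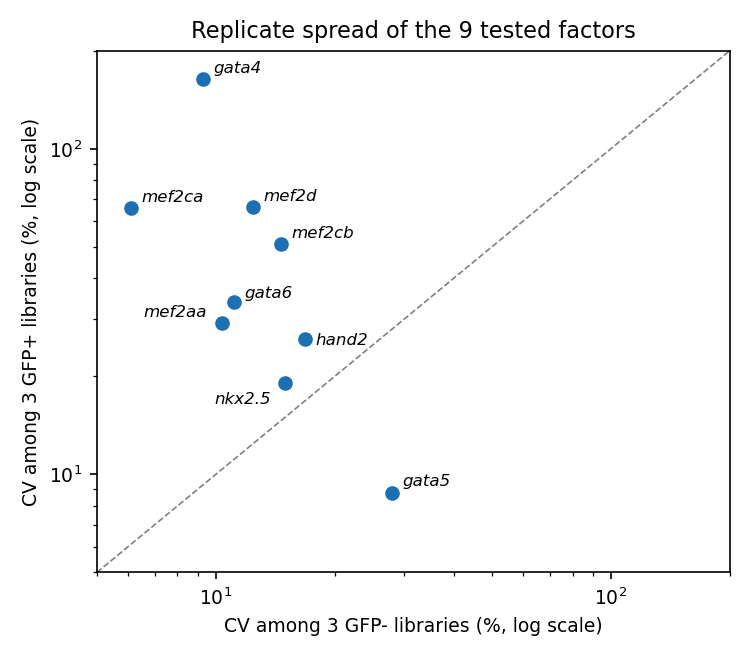
Coefficient of variation of TMM-scaled CPM among the 3 GFP+ libraries against that among the 3 GFP- libraries (%, both axes on a log scale) for the 9 tested factors; the dashed line marks equality. All lie above the line except gata5, at 28.0% and 8.79%.

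Genes with the most similar pattern over the 6 libraries were named for the member with the most counts in each family, among 5853 other genes whose mean reached 10 CPM. These are correlations of log2 CPM over 6 libraries in which a group difference runs through many genes, given as a description. Each named gene was picked as among the highest of 5853 values. How high such values run by selection alone was not computed. For nkx2.5 they were FO082779.1 (r = 0.995) and si:ch211-237l4.6 (0.988). For gata5 they were rbbp5 (0.972) and sec63 (0.967), for hand2 nkap (0.977) and C11H12orf10 (0.975), and for mef2aa ppp2r1ba (0.983) and elf1 (0.981). None of these 8 genes passed the edgeR test itself, with adjusted p from 0.0833 for si:ch211-237l4.6 upwards.

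Of the other regulators that work beside these factors, few passed the test, all of them higher in GFP+ libraries. The list held GATA, NKX2 and MEF2 relatives, FOG cofactors, T-box and islet factors, SRF and myocardin-related factors, histone deacetylases and acetyltransferases, and chromatin and LIM-domain cofactors. Of 64 entries 59 matched a row and 40 were tested. Of the 40, 3 rose, 0 fell and 37 did not pass, beside 2.08% higher and 2.13% lower of all tested genes. This list was chosen with earlier results of these data known, so its counts are a description. DESeq2 called 4 higher and 1 lower, beside 938 higher and 729 lower of all 13490 tested genes. The list median was 0.10, beside 0.01 for all tested genes. tbx2b, a T-box repressor of canal myocardium, rose 3.27-fold (log2 fold change 1.71 ± 0.23, adjusted p = 0.0124). fhl2b, a LIM-only cofactor of muscle, rose from 31.3 ± 3.60 to 75.5 ± 8.94 CPM (1.27 ± 0.21, adjusted p = 0.0239). tcf21, which also marks epicardium, rose from 5.49 ± 0.958 to 22.6 ± 9.26 CPM (2.04 ± 0.43, edgeR adjusted p = 0.0448). Epicardial markers, of which tcf21 is one, summed to 301 to 638 CPM in GFP+ and 123 to 185 CPM in GFP- libraries. Most of those counts were of krt4, podxl and aldh1a2. The factor gene tbx18 had 40, 98 and 67 counts in the GFP- and 175, 117 and 1 in the GFP+ libraries. For wt1b these were 7, 19 and 11 and then 32, 24 and 0. With any 1 of the GFP- libraries left out, 0 of the list rose, while the genes that rose in the whole table went from 280 to 37, 75 and 30. Without GFP+ replicate 1 or 2, 1 of the list rose, against 157 and 91 in the whole table. Without GFP+ replicate 3, 3 rose and 2 fell, against 443 and 575 in the whole table.

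Genes known in some vertebrate as targets of these factors, most of them contractile, moved in both directions. Of 44 entries 38 matched and 35 were tested. Of the 35, 9 fell, 4 rose and 22 did not pass, where 2.13% of all tested genes fell and 2.08% rose. The target list was chosen with earlier results of these data known, so these counts are a description. It shares myl7, tnnt2a, ttn.2, myh6, myh7l and nppa with the cardiomyocyte markers above, whose calls it partly repeats. The list median was -0.51, beside 0.01 for all tested genes. The ventricular myosin genes myh7 and myh7l were lower by 8.01-fold and 7.93-fold (edgeR adjusted p = 0.00427 and 0.00526). ppargc1a, the coactivator of mitochondrial genes and a MEF2 target in mammals, fell from 43.1 ± 9.66 to 10.7 ± 1.32 CPM (-2.02 ± 0.28, adjusted p = 0.0158). The troponin genes tnnt2a and tnnc1a fell 2.04-fold and 2.22-fold (adjusted p = 0.0239 and 0.0318), and the M-band gene myom1b 2.65-fold (adjusted p = 0.0239). The remaining genes that fell were myl7, the actin gene acta1b and the nuclear receptor gene nr4a1.

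The 4 targets that rose were tnnc1b, myh6, postnb and klf2a. tnnc1b, a second troponin C gene, rose 4.85-fold (log2 fold change 2.28 ± 0.26, adjusted p = 0.00891), and the atrial myosin gene myh6 3.66-fold (adjusted p = 0.0192). postnb, a matrix gene of cushion mesenchyme, rose from 6.20 ± 1.25 to 41.7 ± 20.2 CPM (adjusted p = 0.0262). klf2a, a flow-responsive factor gene of endocardium, rose from 46.1 ± 15.7 to 201 ± 102 CPM (adjusted p = 0.0489). Fibroblast and cushion mesenchyme markers, of which postnb is one, and endocardial markers were higher in the same libraries. With GFP- replicate 1, 2 or 3 left out, the targets that fell numbered 2, 5 and 2, and calls of lower genes over all those tested 14, 72 and 14 in place of 288. With GFP+ replicate 1, 2 or 3 left out they were 4, 2 and 7, and 66, 40 and 575 in the whole table. The targets that rose numbered 1, 1, 0, 2, 2 and 3 in that order, and calls of higher genes over all those tested 37, 75, 30, 157, 91 and 443 in place of 280. With a variance for each group, limma-voom called 3 targets lower, beside 197 of all 13490 tested genes.

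**Figure D5:**
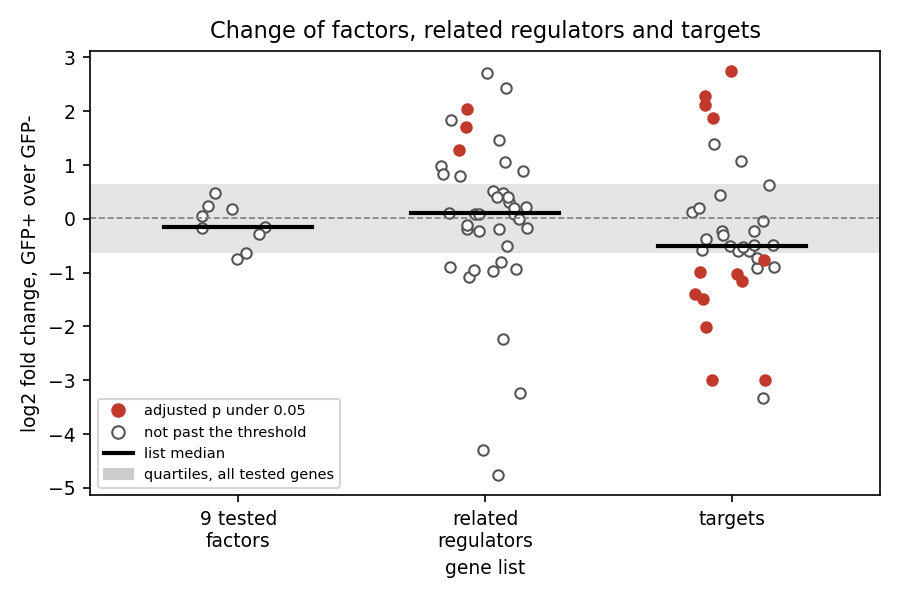
log2 fold changes, GFP+ over GFP-, of the 9 tested factors, 40 related regulators and 35 targets. Filled points passed an adjusted p of 0.05, black bars are list medians (-0.15, 0.10 and -0.51), and the grey band spans the quartiles of all tested genes (-0.63 to 0.65). None of the factors is filled, against 3 regulators and 13 targets. The lists were chosen with earlier results of these data known.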

How the data were processed

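The authors deposited 1 table of raw total counts per gene for each of the 6 libraries, per the file headers, with 25281 gene names and Ensembl identifiers. The aligner, counter, strand setting, build and annotation were not given in the sources used here. Per the labels' protocols, cells were dissociated with collagenase at 3 mg/ml for 30 min, cDNA was amplified with SMART-Seq v4, and libraries were made with an NEBNext Ultra II Directional kit. No molecular identifiers are named, so counting intervals cover counting error only.

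Groups and replicate numbers came from the sample titles. No pair of libraries held the same counts (chi-square per degree of freedom of 33.5 or more). All 13490 genes kept by filterByExpr were fitted with edgeR 4.0.16 in R 4.3.3. The fit used TMM, group as the sole term, a robust quasi-likelihood F test, Benjamini-Hochberg adjustment and a threshold of 0.05. A check on simulated counts gave both groups the same dispersions, so it does not cover the wider spread among the GFP+ libraries. Fold-change errors came from the F value, and 95% intervals from the fit's degrees of freedom. Count shares and ratios of paralogs were compared by two-sided exact permutation over libraries. Alternatives used DESeq2 1.42.0 and limma 3.58.1, other scalings and filters, a replicate block and each library left out. The factors, the related regulators and targets and the marker lists were chosen with earlier results of these data known. Named besides the 10 factors are up to 6 called genes per list and direction with the smallest adjusted p. Named too are myl7 and the 2 genes most correlated with the member with most counts in each family. Added after their values were seen were acta1b, nr4a1, wt1a, wt1b, tcf15, tbx18, krt4, podxl, aldh1a2, acta2, pdgfrb, mef2ab and mef2b. Reference tables held no transcript lengths, so counts, shares and ratios set between different genes are not corrected for length.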

Additional observations from a re-analysis of the deposited data

How the results depend on the processing

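Of the fold changes of the 9 tested factors, 122 of 134 values under the alternatives kept their sign. gata5, nkx2.5 and mef2ca kept it in all of theirs. gata4, with 106 counts in all, reversed to -0.020 with upper-quartile factors, -0.22 without a composition factor, -1.84 with limma-voom and -2.18 with a replicate block, and ranged from -3.88 to 0.59 with 1 library left out. mef2aa reversed to -0.021 without a composition factor. With 1 library left out, mef2aa ranged from -0.033 to 0.35, gata6 from -0.40 to 0.040, hand2 from -0.42 to 0.0036, mef2d from -0.83 to 0.14 and mef2cb from -0.27 to 0.53. The causes were not tested. The median over all tested genes was -0.11 (upper quartile), -0.16 (no composition factor), -0.36 (limma-voom) and -0.29 (replicate block), against 0.01.

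Factors called lower numbered 0 to 1 with 1 library left out, and factors called higher 0. Regulators called higher ranged from 0 to 3 and lower from 0 to 2, and targets called higher from 0 to 3 and lower from 2 to 7. These fits have fewer libraries. DESeq2 called 1 regulator lower, beside 729 of all tested genes, and limma-voom 3 targets lower, beside 197. The cause was not tested.

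Of 133 share and ratio differences under alternatives 118 kept their sign. With 1 library left out, the group difference in share ranged from -0.521 to 0.0958 percentage points for gata4, -0.122 to 0.107 for nkx2.5, -0.107 to 0.122 for nkx2.7 and -0.207 to 4.45 for mef2cb. The log2 ratio difference ranged from -0.44 to 1.36 for nkx2.5 to nkx2.7, from -0.43 to 0.48 for mef2aa to mef2cb and from -0.89 to 0.25 for mef2ca to mef2d. Shares per coding length were not run, since no lengths were at hand.

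The labels tie replicate numbers to no shared fish or day. Deviations from the group means correlated at 0.131, 0.187 and 0.0922 between same-numbered libraries, each its best match. Between differently numbered libraries all correlations were negative, from -0.120 to -0.0123. Deviations from a group mean sum to 0 for each gene, so positive same-numbered values largely entail these negative ones. They are not separate evidence on pairing. Since 1 same-numbered value was under the set threshold of 0.1, the numbers were not taken as pairs. Whether they mark pairs is not settled. With the replicate block 0 factors, 3 regulators and 4 targets higher and 9 targets lower were called, the same counts as without it.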
